A study of Mus musculus with 30 samples.

Results

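Noct and 9 genes of the circadian clock were followed in primary mouse tail tendon fibroblasts in which actomyosin contraction had been inhibited. The 10 genes are Noct, Per1, Per2, Cry1, Bhlhe40, Nr1d1, Nr1d2, Dbp, Arntl and Clock, taken by name from the 35973 genes of the blebbistatin table, and all 10 passed the filter on low values. They were chosen by their RNA differences under these treatments, already known from the same libraries, so their RNA values below are a description and carry no test. RNA was measured in cells given the solvent DMSO, 10 µM blebbistatin, which inhibits the motor protein non-muscle myosin II, or 30 µM Y27632, an inhibitor of kinases, with 3 libraries per group. ATAC, which marks accessible chromatin, was done on 9 libraries of cells treated likewise, 3 per treatment. A further 12 genomic DNA libraries, 3 per group, held cells with neither drug, with blebbistatin at 10 µM, with doxycycline at 10 ng/mL, or with both. All cells were labelled wildtype, had been grown in 10% serum and were treated in 0.1% serum. The labels do not state what doxycycline induced, how long the drugs were present or at what hour cells were collected, nor whether libraries came from separate cultures or animals, so p-values measure only the spread between these libraries.

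The clock is a transcriptional feedback loop. Arntl (also called Bmal1) and Clock proteins bind E-box sequences as a pair and activate the Per and Cry genes, whose products repress that pair. Nr1d1 and Nr1d2 (REV-ERB alpha and beta) are nuclear receptors that repress Arntl, Dbp is an output activator that binds D-boxes, and Bhlhe40 (DEC1) is a repressor that also binds E-boxes. Noct (nocturnin) is a rhythmically expressed phosphatase of the family of CCR4 deadenylases. Each library is a single collection of cells, so a shift in the phase of the clock and a change in its level cannot be told apart, and in such bulk samples fewer cells expressing a gene and less RNA per cell cannot be told apart either.

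Total reads in genes ranged from 23375386 to 37061737 over the 9 RNA libraries. All 10 tendon fibroblast markers examined, among them Col1a1, Scx and Tnmd, had reads in every library, as had all leukocyte, endothelial and Schwann cell markers examined. Summed leukocyte markers (3 genes) were 1043 to 1177 normalised counts in DMSO, 1479 to 1688 with blebbistatin and 1381 to 1612 with Y27632, against 792432 to 922471 for the fibroblast markers. Most of the fibroblast sum came from Col1a1, Col1a2 and Col3a1, with means of 276612, 243485 and 251568 over the libraries. Scx and Tnmd had means of 72.5 and 938, beside 768, 447 and 190 for the leukocyte markers Cd68, Csf1r and Ptprc. Summed endothelial markers (3 genes) were 85.9 to 99.8, 111 to 123 and 109 to 124 in the same order, and Schwann cell markers (3 genes) 122 to 146, 162 to 174 and 144 to 174. The part of these cells in the results below was not tested. Epithelial, muscle and adipocyte markers summed to at most 10.8 in any library, and Myod1, which defines muscle, had 0 reads in all.

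Sequences that bear on the results come first. The first set holds the matches to a TEAD motif that the authors' list gives inside the ATAC sites upstream of Noct. They are shown because these sites were lower with blebbistatin, and capitals mark the match, written as the list gives it. The letters of the minus-strand match hold CATTCC, the reverse complement of the TEAD core GGAATG. They therefore read as the plus strand, and the motif lies on their reverse complement. The match in the site at chr3:51217915-51218202 holds GGAATT and lacks the core GGAATG on both strands.

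Noct, site at chr3:51220936-51221099, plus strand: AGGAATGTGT
Noct, site at chr3:51220936-51221099, minus strand: GTACATTCCA
Noct, site at chr3:51217915-51218202, plus strand: AGGAATTTAT

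The first match lies 56 bases and the second 68 bases from the start of the nearer site, and the third lies 154 bases from the start of the farther one. The motif was listed in 603 of the 970 sites of that list (62.2%), and 200 sites (20.6%) had 2 or more matches, so its presence is common among them.

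The second set holds promoters that hold the E-box CACGTG or the related CACGTT, the sequences through which Arntl and Clock act. Each is the 250 bases before a transcription start from RefSeq (GRCm38.p6), 5′ to 3′ on the strand of the gene, with the matches in capitals.

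Per1, chr11:69098699-69098948, plus strand: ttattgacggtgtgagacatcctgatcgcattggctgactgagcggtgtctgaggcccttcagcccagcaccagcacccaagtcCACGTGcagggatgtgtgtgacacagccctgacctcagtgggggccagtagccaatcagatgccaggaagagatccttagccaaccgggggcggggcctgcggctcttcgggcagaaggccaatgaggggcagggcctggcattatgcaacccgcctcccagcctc
Cry1, chr10:85185055-85185304, minus strand: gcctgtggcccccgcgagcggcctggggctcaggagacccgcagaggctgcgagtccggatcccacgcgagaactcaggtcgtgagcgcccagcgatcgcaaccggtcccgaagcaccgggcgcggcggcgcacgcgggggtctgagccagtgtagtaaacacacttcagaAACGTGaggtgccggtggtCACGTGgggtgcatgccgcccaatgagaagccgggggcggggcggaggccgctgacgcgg
Nr1d1, chr11:98775378-98775627, minus strand: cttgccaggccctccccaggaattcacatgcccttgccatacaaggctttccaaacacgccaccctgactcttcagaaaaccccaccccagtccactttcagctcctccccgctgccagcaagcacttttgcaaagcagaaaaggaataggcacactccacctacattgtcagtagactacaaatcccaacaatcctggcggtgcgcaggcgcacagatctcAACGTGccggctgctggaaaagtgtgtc

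The Cry1 promoter had both forms, with CACGTG starting 60 bases and the reverse complement of CACGTT starting 79 bases before the start. In Per1 CACGTG began 166 bases before this start, and in Nr1d1 the reverse complement of CACGTT began 28 bases before it. Of all 32851 promoter windows of that length, searched on both strands, 6.02% held CACGTG and 3.85% held CACGTT. The 8 genes in the table have 12 windows, of which 2 held CACGTG and 2 held CACGTT, with the Cry1 window counted in both. The other Per1 window and all windows of Arntl, Clock, Nr1d2, Dbp and Noct held neither. The TEAD core GGAATG, present in 12.6% of all windows, was found in that of Nr1d2. TTANGTAA (D-box), TGACGTCA (CRE), the ROR element, the AP-1 site and the CArG box, present in 2.06%, 1.55%, 0.648%, 4.46% and 1.47% of windows, had no match in any window of these genes. Every window ends just before its start and later bases were not searched, so an element across or after the start would be missed. The absence of a ROR element from the Arntl windows is therefore not evidence that the gene lacks one. A match is a description of letters, not of binding.

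Noct had opposite differences under the inhibitors. Its normalised counts were 214, 212 and 250 in DMSO and 132, 114 and 125 with blebbistatin, with means of 226 ± 21.6 and 124 ± 8.88 (SD, n = 3). Every blebbistatin library lay below every DMSO library, and the difference was -0.86 on the log2(normalised count + 1) scale (SE 0.106). In the Y27632 table, which the authors scaled separately, Noct was at 223, 220 and 260 in DMSO and 397, 344 and 415 with Y27632. All Y27632 libraries lay above all DMSO libraries, by 0.72 log2 (SE 0.0926). No other of the 10 genes differed this much from DMSO in both treatments.

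The repressors of the loop did not share 1 pattern. Cry1, a cryptochrome that represses Arntl and Clock proteins, was at 347, 312 and 311 in DMSO and 184, 192 and 200 with blebbistatin, a log2 difference of -0.75 (SE 0.0829). The groups did not overlap. With Y27632 it was at 359, 324 and 388 against 360, 324 and 324 in DMSO, which overlapped (log2 difference 0.09, SE 0.0816). Per1, a period gene that also responds quickly to stimuli, had the reverse arrangement. It overlapped between DMSO (826, 724 and 721) and blebbistatin (792, 862 and 881), with a log2 difference of 0.16 (SE 0.0647). With Y27632 it was at 1239, 1251 and 1346 against 859, 751 and 750 in DMSO, higher in every library by 0.70 log2 (SE 0.0587). Per2, a close relative of Per1, was at 236, 193 and 233 in DMSO and 188, 158 and 181 with blebbistatin (log2 difference -0.33, SE 0.109). It was at 246, 200 and 242 in DMSO and 252, 271 and 283 with Y27632 (log2 difference 0.23, SE 0.0953). Neither pair of Per2 groups overlapped, though the nearest libraries were 193 against 188 and 246 against 252.

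**Figure D1:**
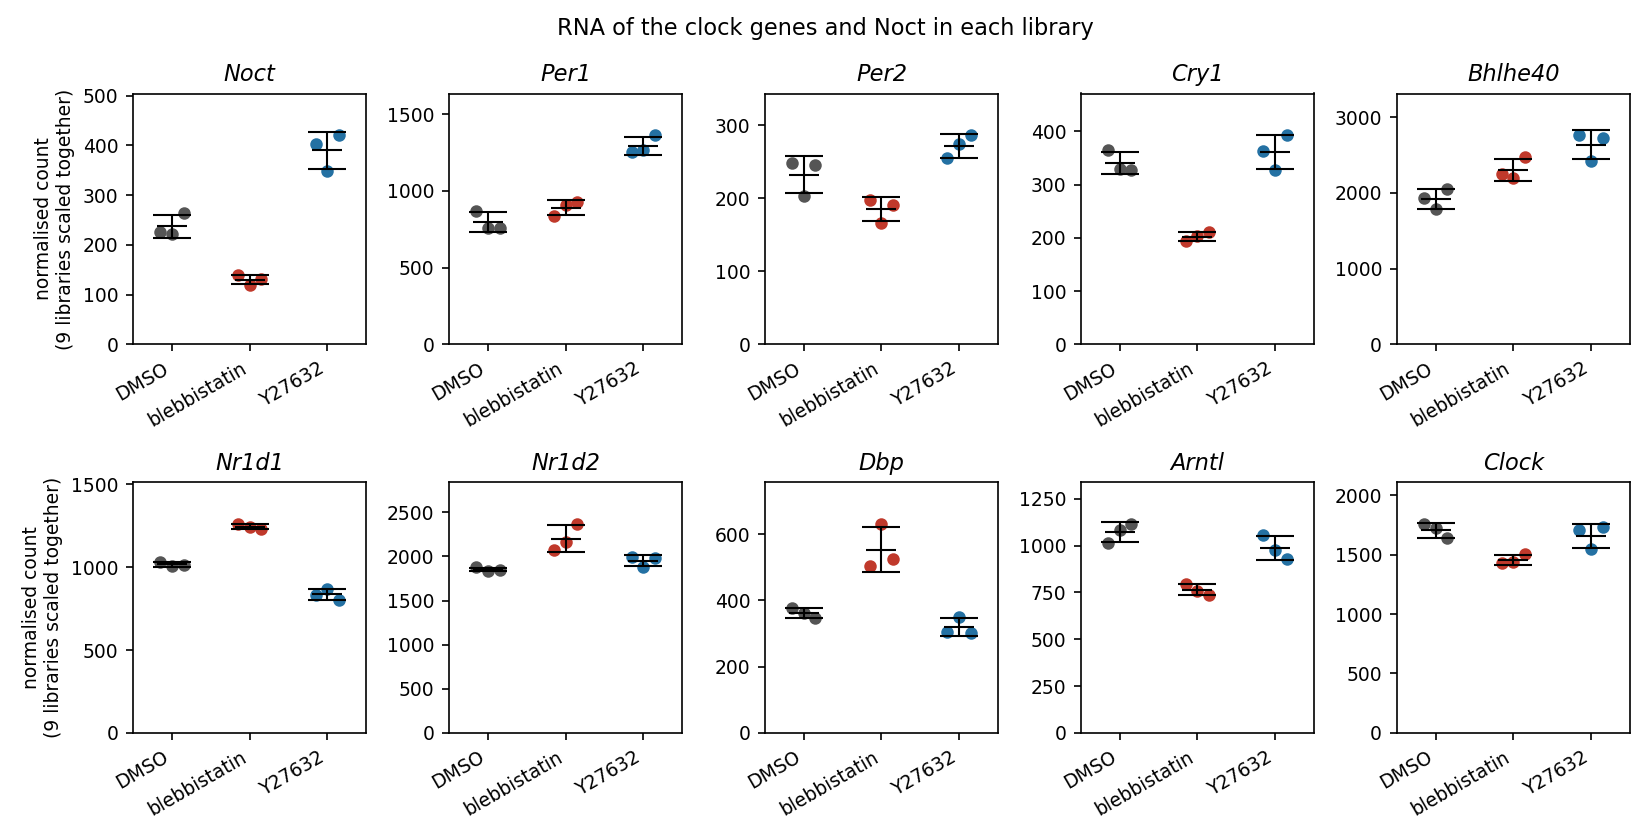
Normalised counts of the 10 genes in the 9 RNA libraries scaled together (vertical axis, starting at 0) by treatment, with the mean and SD (n = 3) as bars. Noct, Per2 and Nr1d1 separate all 3 groups with DMSO in the middle, and Cry1 is low with blebbistatin while its DMSO and Y27632 libraries overlap.

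The E-box repressor Bhlhe40 was higher with both inhibitors. It was at 1836, 1697 and 1947 in DMSO and 2140, 2083 and 2343 with blebbistatin (log2 difference 0.26, SE 0.0562). With Y27632 it was at 2725, 2392 and 2697 against 1909, 1761 and 2023 in DMSO (log2 difference 0.46, SE 0.0570). Neither comparison had overlapping groups.

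The nuclear receptors and Dbp were higher with blebbistatin. Nr1d1 was at 979, 956 and 960 in DMSO and 1197, 1179 and 1165 with blebbistatin (log2 difference 0.29, SE 0.0417), and its libraries within a group were close together. With Y27632 it was lower, at 824, 860 and 791 against 1018, 993 and 998 (log2 difference -0.28, SE 0.0472). Nr1d2 was at 1782, 1742 and 1754 in DMSO and 1965, 2053 and 2245 with blebbistatin (log2 difference 0.24, SE 0.0478). With Y27632 it was at 1971, 1860 and 1959 against 1853, 1808 and 1823 in DMSO (log2 difference 0.08, SE 0.0375). Those groups did not overlap, though the nearest libraries were 1860 against 1853. Dbp had the largest difference of the 3 genes. It was at 359, 345 and 330 in DMSO and 478, 599 and 498 with blebbistatin (log2 difference 0.60, SE 0.0853). With Y27632 Dbp was at 300, 346 and 299 against 374, 358 and 343 in DMSO, where the groups overlapped (log2 difference -0.19, SE 0.0783). In the reference gene table Nr1d1 overlaps Thra and Dbp overlaps Sphk2, and since the use of strand in counting is not given in the sources used here, reads of the shared stretches cannot be told apart.

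The activators were lower with blebbistatin. Arntl was at 965, 1031 and 1059 in DMSO and 755, 720 and 698 with blebbistatin, with no overlap (log2 difference -0.49, SE 0.0533). Clock was at 1670, 1636 and 1552 in DMSO and 1356, 1362 and 1423 with blebbistatin, with no overlap (log2 difference -0.23, SE 0.0430). With Y27632 both overlapped DMSO, with log2 differences of -0.12 for Arntl (SE 0.0554) and -0.04 for Clock (SE 0.0486).

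**Figure D2:**
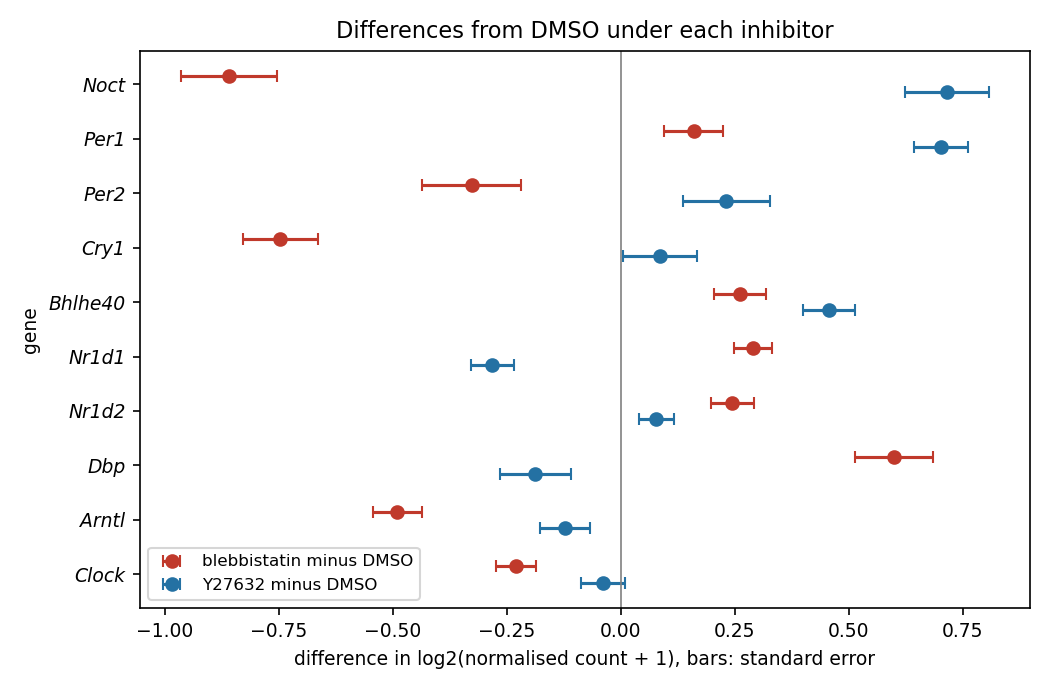
Difference from DMSO in log2(normalised count + 1) for each gene (horizontal axis), with the standard error as bars, for blebbistatin (red) and Y27632 (blue). Noct is at -0.86 with blebbistatin and 0.72 with Y27632, and Dbp at 0.60 and -0.19. Both differences of a gene use the same 3 DMSO libraries.

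With blebbistatin, 9 of the 10 genes passed an adjusted p under 0.05 in the fit over all genes, 4 higher (26.1% of all genes tested were) and 5 lower (26.9% were), where 53.0% of the 14882 genes tested did so in either direction. With Y27632, 4 of 10 did, 3 higher (18.1% of all genes) and 1 lower (17.8%), where 35.9% of 14833 did in either direction. Groups did not overlap for 9 genes with blebbistatin and 6 with Y27632, against 60.2% and 48.1% of all genes. The genes were chosen with these contrasts known, so nothing is read from these counts. The median log2 difference of the 10 genes was -0.04 with blebbistatin and 0.08 with Y27632, beside 0.0021 and 0.0040 over all genes tested. The median absolute difference was 0.31 and 0.21, beside 0.22 and 0.15 over all genes.

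The treatments were also set against each other on the recovered reads of all 9 libraries, scaled together. Noct was at 139, 120 and 132 with blebbistatin and 402, 348 and 420 with Y27632, a log2 difference of -1.58 (blebbistatin minus Y27632, SE 0.0994). The Y27632 mean was 2.99 times the blebbistatin mean. Cry1 (-0.82), Per2 (-0.55), Per1 (-0.53), Arntl (-0.36), Bhlhe40 (-0.18) and Clock (-0.18) were also lower with blebbistatin than with Y27632 in log2. Dbp (0.81), Nr1d1 (0.58) and Nr1d2 (0.18) were higher. Groups did not overlap for 9 of the 10 genes, all but Bhlhe40, against 60.5% of 14925 genes tested, and 10 of 10 passed the threshold against 53.1%, 3 higher with blebbistatin (26.9% of all genes) and 7 lower (26.2%). From lowest to highest, Noct ran blebbistatin, DMSO, Y27632 with no overlap between neighbours, as did Per2, and Nr1d1 ran in the opposite order with none. For Cry1 the DMSO and Y27632 libraries overlapped, and for Per1 the DMSO and blebbistatin libraries did.

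Over the 9 libraries, genes whose log2 levels were among the 5 most like those of Noct, out of 11445 other genes with a mean of at least 100 normalised counts, were Tmeff2 (Pearson r 0.995), Elp5 (0.993), Cyth3 (0.992) and Fam13c (0.992). None of the 10 genes is among them. The 9 points share their treatment groups, so these values describe the group pattern.

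A further 35 genes of the clock and its regulation, listed by function and not part of the 10, were tested in the same fits, and all 35 passed the filter. With blebbistatin 15 rose and 5 fell by limma with Benjamini-Hochberg adjustment over all genes (26.1% and 26.9% of all genes did), and with Y27632 10 rose and 4 fell (18.1% and 17.8%). The list was drawn up with earlier results of these data known.

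Both activator genes of the list rose with blebbistatin: Npas2, a relative of Clock (log2 difference 0.85, adjusted p 0.000328, limma), and Arntl2, a relative of Arntl (0.31, adjusted p 0.0449, limma). With Y27632 Npas2 rose by 0.52 (adjusted p 0.016, limma), while Arntl2 was at -0.17 and was not called (adjusted p 0.278, limma). Among 3 further repressors, Ciart, a circadian repressor, fell with both: -1.11 with blebbistatin (adjusted p 7.24e-05, limma) and -0.93 with Y27632 (adjusted p 0.000265, limma). These share the DMSO libraries, and blebbistatin differed from Y27632 by -0.19 (adjusted p 0.372, edgeR). Per3 fell with blebbistatin by 0.22 (adjusted p 0.00808, limma), and Cry2 was not called there but rose with Y27632 by 0.16 (adjusted p 0.00893, limma).

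Rorb, a nuclear receptor that activates through the elements that REV-ERB proteins occupy, was at 221, 233 and 209 in DMSO and 412, 428 and 386 with blebbistatin, a rise of 0.88 log2 (adjusted p 1.11e-06, limma). With Y27632 it was at 177, 209 and 193 against 230, 242 and 217 in DMSO, a fall of 0.25 log2 (adjusted p 0.0485, limma). The direct difference was 1.15 (adjusted p 3.43e-08, edgeR). Its relative Rora rose with both, by 0.16 with blebbistatin (adjusted p 0.0181, limma) and 0.41 with Y27632 (adjusted p 6.09e-05, limma).

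Hlf, a PAR bZIP factor related to Dbp, rose by 1.28 with blebbistatin (adjusted p 1.49e-05, limma) and 0.70 with Y27632 (adjusted p 0.00183, limma). Nfil3, which opposes the PAR bZIP factors at D-boxes, fell by 0.61 with blebbistatin (adjusted p 3.69e-06, limma) and was at 0.03 with Y27632 (adjusted p 0.719, limma), and the direct difference was -0.62 (adjusted p 3.26e-07, edgeR). Bhlhe41, the closest relative of Bhlhe40, rose by 1.06 with blebbistatin (adjusted p 1.73e-08, limma) and 0.35 with Y27632 (adjusted p 0.00102, limma).

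Of 8 genes for CREB signalling to the Per genes, 4 rose and 0 fell with blebbistatin (26.1% and 26.9% of all genes did), and 2 rose and 1 fell with Y27632 (18.1% and 17.8%). Sik1, a kinase that restrains this signalling, rose by 0.78 with Y27632 (adjusted p 7.62e-07, limma) and by 0.19 with blebbistatin (adjusted p 0.0429, limma), and was lower with blebbistatin than with Y27632 by -0.57 (adjusted p 3.47e-06, edgeR). Of 8 kinases, ubiquitin ligases and proteases acting on clock proteins, 3 rose and 1 fell with blebbistatin, and 2 rose and 0 fell with Y27632, beside the same shares of all genes (26.1% and 26.9%, 18.1% and 17.8%). Of 5 relatives of Noct, Angel1 rose by 0.59 (adjusted p 0.000272, limma) and Pde12 fell by 0.26 (adjusted p 0.0112, limma) with blebbistatin. With Y27632 the only relative called was Cnot6, which rose by 0.15 (adjusted p 0.0129, limma). Beside these calls among the 5 relatives stand the same shares of all genes (26.1% and 26.9%, 18.1% and 17.8%).

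Some of these calls were near the threshold and did not hold when a library was left out. With blebbistatin this was so for Arntl2 and Sik1 (4 of 6 libraries each), the protease gene Usp2 and the PAR bZIP gene Tef (3 libraries each). Over every refit that lost the call, other settings included, their adjusted p reached 0.173, 0.151, 0.101 and 0.203 (limma or DESeq2). It was also so for Rora (4 libraries, adjusted p up to 0.069, limma) and Pde12 (only DMSO replicate 3, 0.0504, limma). With Y27632 it was so for Rorb and the CREB genes Crem and Sik3 (4 libraries each). Over every refit that lost the call, their adjusted p reached 0.175, 0.105 and 0.193 (limma or DESeq2). Npas2 (3 libraries, adjusted p up to 0.0628, limma) and Cnot6 (2 libraries, up to 0.0613, limma) also lost the call. Hlf, Bhlhe41, Ciart and Nfil3 kept each call named above under every alternative run.

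**Figure D3:**
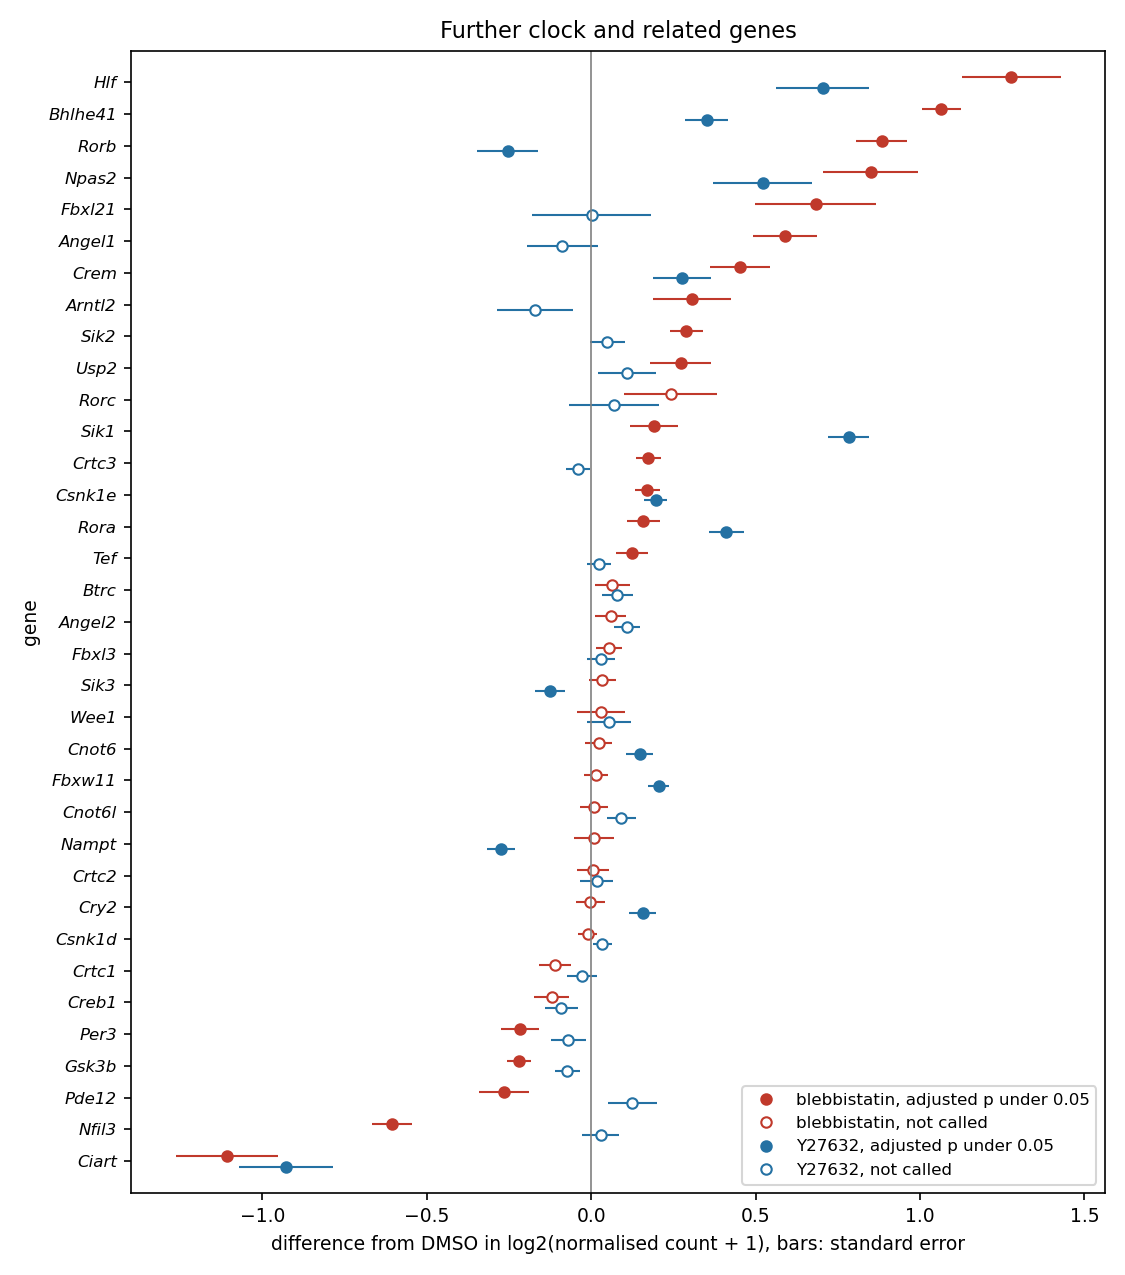
Difference from DMSO in log2(normalised count + 1) for the 35 further genes (horizontal axis) with the standard error as bars. Filled points passed an adjusted p under 0.05 by limma. Hlf (1.28 with blebbistatin) and Ciart (-1.11) lie at the ends, and Rorb is at 0.88 and -0.25 for the 2 treatments.

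Sites in the 5 lists of differing chromatin sites were taken by the gene to which the authors annotated them, with coordinates as in the files (mm10 per the submitters' processing notes). The lists give group means and the authors' log2 fold and FDR, so there is no spread between libraries to show. In all, the ATAC blebbistatin list held a site for 1 of the 10 genes (3.61% of genes tested for RNA had one), the ATAC Y27632 list for 0 (0.893%), blebbistatin without doxycycline for 2 (4.53%), doxycycline for 6 (25.4%) and blebbistatin with doxycycline for 5 (18.2%). Dbp and Bhlhe40 had none in any list.

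Noct had listed sites in 4 of the 5 lists, all upstream of its start and annotated as intergenic. The nearer one, 3429 bases before the start in an RMER5 long terminal repeat, was at chr3:51220936-51221099 in the ATAC blebbistatin list. Its group mean was 4.57 log2 with blebbistatin and 6.19 with DMSO, an authors' log2 fold of -1.62 (FDR 0.0117). In the libraries of the doxycycline experiment, which are other libraries, the overlapping site chr3:51220954-51221113 was at 4.09 with blebbistatin and 6.05 with neither drug, a log2 fold of -1.96 (authors' FDR 2.15e-05). With doxycycline alone, chr3:51220912-51221124 was at 6.99 against 5.99, a log2 fold of 1.0 (authors' FDR 0.000133). That is the smallest size the list admits. The last pair of lists share the group with neither drug.

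The farther one, 6388 bases before the start in an MT2_Mm long terminal repeat, was at chr3:51217915-51218202, with 5.04 with blebbistatin and 6.50 with DMSO (log2 fold -1.46, authors' FDR 0.0247). An overlapping site, chr3:51217891-51218198, was at 5.78 with blebbistatin and doxycycline and 6.79 with doxycycline alone (log2 fold -1.01, authors' FDR 2.61e-05). Both Noct sites were therefore lower with blebbistatin in the ATAC libraries. In the doxycycline experiment the nearer one was listed as lower with blebbistatin only without doxycycline, and the farther one only with it. In these lists nearly all sites were lower, 98.2% in the ATAC blebbistatin list, 99.0% with blebbistatin without doxycycline and 99.8% with it. The direction at Noct is that of nearly every listed site.

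**Figure D4:**
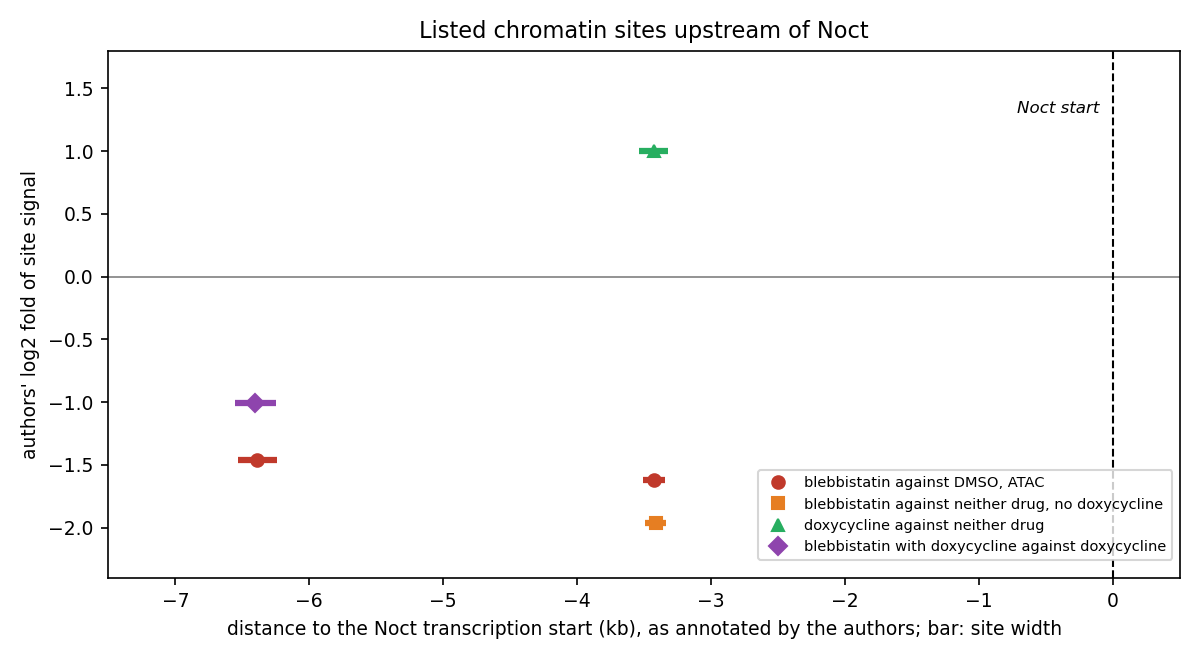
Authors' log2 fold of the listed sites (vertical axis) against distance to the Noct start in kb (horizontal axis), 1 point per list and site with the width of the site as a bar. The sites near -3429 bases are at -1.62 and -1.96 with blebbistatin and 1.0 with doxycycline, and those near -6388 bases at -1.46 and -1.01 with blebbistatin.

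Per1 had a site in intron 1 of 22, close after an annotated start, that was lower with blebbistatin both without doxycycline (chr11:69100316-69100454, log2 fold -1.06, authors' FDR 0.0329) and with it (chr11:69100359-69100469, log2 fold -1.11, authors' FDR 3.4e-05). Another, at chr11:69096999-69097305, was higher with doxycycline (log2 fold 1.18, authors' FDR 3e-06). It lies 1797 bases before a different Per1 start, the one whose promoter is printed above. Promoter sites were higher with doxycycline at Per2 (chr1:91459095-91459739, log2 fold 1.16, authors' FDR 4.04e-08), Cry1 (chr10:85185255-85185578, 1.12, authors' FDR 1.33e-06) and Clock (chr5:76304148-76304411, 1.04, authors' FDR 5.54e-05). The Cry1 site covers the outer 50 of the 250 promoter bases printed above and neither match lies in those 50. Nr1d1 had a site in intron 1 of 7 that was higher with doxycycline (chr11:98772899-98773200, log2 fold 1.09, authors' FDR 1.05e-06). Of the listed doxycycline sites, 95.8% were higher.

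With blebbistatin on top of doxycycline, sites were lower in intron 1 of 12 of Cry1 (chr10:85161805-85162037, log2 fold -1.03), intron 2 of 16 of Arntl (chr7:113241932-113242360, -1.02) and the last exon of Nr1d2, in its 3' UTR (chr14:18204465-18204608, -1.36). RNA was not measured in the doxycycline experiment, so these sites have no matching RNA values. RNA of Cry1 and Arntl was lower and RNA of Nr1d2 higher with blebbistatin without doxycycline.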

How the data were processed

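The members and gene lists were chosen with earlier results of these data known. RNA was deposited as a signal in 2 tables, which the authors made by dividing the counts of each library by its size factor, separately per table. Whole reads were recovered: 100% of values were whole multiples of a step within 0.02 of a read, and 0 DMSO reads differed between tables over 35972 genes. Per the submitters' processing notes the tools included HISAT2, featureCounts, DESeq2, Bowtie2, Picard, MACS2, DiffBind and HOMER, and the build was mm10. Their settings are not given in the sources used here. The log2 fold, log2 group means, p-value and FDR (at most 0.05) of the site lists are the authors' deposited values.

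Tested genes had a mean of 10 or more normalised counts. The fit was limma 3.58.1 (R 4.3.3), trended, on log2(normalised count + 1), a scale that understates the change of low genes, and genes were called at a Benjamini-Hochberg adjusted p under 0.05. The count test, edgeR 4.0.16 (quasi-likelihood, TMM), compared the treatments with each other. As an alternative on the recovered reads it called 7924 genes with blebbistatin and 5354 with Y27632, against 7894 and 5328 by limma. The scripts were tested on simulated data, in which a far smaller share of genes differed than was called here. Of true differences of 0.5 log2, 62% were called for blebbistatin against DMSO, 68% for Y27632 against DMSO and 72% between treatments. At 1 log2 the shares were 86%, 85% and 86%. These shares depend on how many genes differ, so they do not give the sensitivity of the fits above. A gene that was not called may still differ. All 9 replicate pairs differed beyond sampling noise (chi-square per degree of freedom 2.63 to 8.06). All 10 genes and any of the 35 further genes were eligible to be named, and the 5 genes most like Noct were taken by Pearson correlation, of which 1 is not reported here. The reference column of the doxycycline list carries the header of the blebbistatin group. At 13 shared sites it lay a mean of 1.12 (SD 0.184) from that group but -0.13 (SD 0.0044) from cells without either drug, and it was read as the latter. Promoters of 8 of the 10 genes were in the table used.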

Additional observations from a re-analysis of the deposited data

Results flagged for a closer look

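Some genes differed from DMSO in opposite directions under the inhibitors, with every library of each treatment outside the DMSO range. The log2 difference of blebbistatin minus Y27632 was -1.58 for Noct, -0.55 for Per2 and 0.58 for Nr1d1. All 3 passed the threshold in the edgeR fit over all genes, as 53.1% of genes did, but they were chosen with the contrasts known, so no p is given and nothing is read from it. For Rorb it was 1.15 (adjusted p 3.43e-08, edgeR). Its fall with Y27632, at an adjusted p of 0.0485 by limma, lost the call in 7 of 14 alternatives, where adjusted p ranged up to 0.175.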

How the results depend on the processing

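Each RNA comparison was refitted under 14 alternatives. The sign of every member's difference was kept in all 14, except for Clock with Y27632, which turned to 0.01 when 1 library was left out. The threshold was crossed in 4 of 14 for Per2 with blebbistatin and for Bhlhe40 between treatments, in 2 for Per1 with blebbistatin, and in 1 for Arntl and for Dbp with Y27632. No called further gene changed sign. Of the called further genes, 6 of 20 with blebbistatin, 5 of 14 with Y27632 and 3 of 20 between treatments lost the call in at least 1 alternative, among them Arntl2, Tef and Sik1 with blebbistatin and Crem and Sik3 with Y27632. The further genes called lower with Y27632 numbered 4, and 2 with no filter, with DESeq2 and with the replicate block. With 1 library left out they numbered 2 to 4, and 2 without DMSO replicate 1, DMSO replicate 2 or Y27632 replicate 1. At an FDR of at most 0.01 the ATAC blebbistatin list kept 0 of the 2 Noct sites, and blebbistatin without doxycycline kept 1 of 2 sites, that of Noct.

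No sign was seen that the replicate numbers pair the libraries, though a paired design is not excluded. Same-numbered libraries correlated at -0.17 to 0.13 in their deviations over 9 pairs, and 2 of 9 libraries correlated best with their own number. With the replicate block 7604 genes were called with blebbistatin, 4633 with Y27632 and 7699 between treatments, against 7894, 5328 and 7926 without it. The site lists give no depth or values per library.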

Other observations

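Chromatin sites annotated to the 35 further genes were also listed. The doxycycline list held 20 sites for 15 of these 35 genes, where 25.4% of genes tested for RNA had a site. Of the 20 sites 19 were higher, as were 95.8% of all sites in that list, among them 3 at Sik1 (authors' log2 fold 1.32, 1.12 and 1.06) and 1 just before the Hlf start (1.08). The list of blebbistatin with doxycycline held 14 sites for 10 of the 35 genes (18.2% of genes tested for RNA had one), all lower, as were 99.8% of its sites. Blebbistatin without doxycycline had 1 site, at Rora (4.53% of genes had one). The ATAC lists held 0, where 3.61% of genes had a site with blebbistatin and 0.893% with Y27632.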
